A study of Mus musculus with 20 samples.

Results

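Cholesterol and fatty acid synthesis was followed through 34 genes, chosen by gene symbol from a list of pathway members, among the 21326 gene rows measured in 20 libraries of sorted mouse microglia. The sterol arm holds 21 of them, from the transcription factor SREBP2 and the enzymes that turn acetyl-CoA into cholesterol to proteins that sense and carry sterols. The fatty acid arm holds the other 13, from SREBP1 and the enzymes that make and join the carbon units to those that lengthen and desaturate the chains. All 34 symbols were found, each in 1 row.

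The series measured bulk RNA from microglia (CD45mid, CD11b-positive cells sorted from brain tissue) of 9-month-old mice of strain C57BL/6, the C3aR-KO line having been backcrossed to C57BL/6J, of both sexes, to ask how C3aR, the receptor for the complement fragment C3a, relates to the state of microglia near Aβ plaques. APP-KI mice carry the APP-NL-G-F alleles, a humanized App gene with 3 familial mutations expressed from its own locus, and develop plaques without overexpression of App. In 6 libraries the cells were also selected as C3aR-positive through a Td-tomato reporter placed in the C3ar1 locus, from 3 WT;Td-tomato and 3 APP-KI;Td-tomato mice, so that the sort and the reporter background cannot be told apart. The other 14 libraries, without selection on C3aR, stand for 3 APP-KI mice, 5 APP-KI; C3aR-KO mice (double mutants), 3 mice of WT and 3 of C3aR-KO, where C3ar1 was deleted in the whole body by a germline allele.

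Libraries of C3aR-positive microglia held between 19962604 and 30388941 reads in WT and between 13939559 and 23086997 in APP-KI. The other libraries held between 67797819 and 76608464 reads in WT, 44418969 and 55722037 in APP-KI, 61843354 and 69483570 in C3aR-KO, and 42239056 and 69658208 in double mutants. Values are given here as scaled values, that is, reads of a gene over the 75th percentile of counts in its library, multiplied by a single constant, with no division by gene length, so that levels are compared between libraries and not between genes. Before any result, 5 of the 14 libraries not selected on C3aR stood apart. Reads were found on 13250 genes in APP-KI replicate 4, 12702 and 13055 in C3aR-KO replicates 1 and 2, and 12387 in double-mutant replicate 1, while APP-KI replicate 5 had reads on 21219, against 14888 to 17450 in the 15 remaining libraries. All 5 belong to 1 of the 2 library series of these cells. That series also holds WT replicate 4 (15551 genes) and double-mutant replicate 2 (17450), which did not stand apart. The series and the state of the 5 libraries can thus be told apart only in part. Without the 4 with fewer genes C3aR-KO is left in the other series only. Double-mutant replicate 1 had 0 reads on 6 of the 21 sterol genes, whereas C3aR-KO replicate 1 had 0 on 3 and C3aR-KO replicate 2 on 1. Comparisons among these genotypes were therefore also fitted without the 4 libraries with fewer genes detected, an alternative added after the values were seen.

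Cells build cholesterol from acetyl-CoA through mevalonate, squalene and lanosterol, and build fatty acids from the same precursor through malonyl-CoA. When membranes of the endoplasmic reticulum hold little sterol, SREBP2 is carried to the Golgi, cleaved, and switches on nearly the whole sterol pathway, while INSIG1 holds it back when sterol is plentiful, and SREBP1 does the same chiefly for fatty acid synthesis. In the adult brain cholesterol is made locally because lipoproteins hardly cross the blood-brain barrier, astrocytes supply much of it, and microglia take up lipid-rich debris such as myelin.

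C3ar1, the targeted gene, was examined as a check of the labels. Its scaled value was 276, 329.9 and 340.0 in WT and 165, 315 and 388 in APP-KI, but 68.1, 39.9 and 65.7 in C3aR-KO and 80.4, 77.4, 69.4, 75.9 and 61.9 in double mutants. All 8 knockout libraries were lower than all 6 WT and APP-KI libraries of the same sort, although reads remained on the gene. In C3aR-positive microglia it was 71.0, 81.2 and 37.6 in WT and 383, 251 and 201 in APP-KI, so that the WT libraries of the C3aR-positive sort were about as low as the knockouts.

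In C3aR-positive microglia, most of the sterol arm was higher in APP-KI than in WT. Of 21 genes, 13 rose at an adjusted p under 0.05 (limma, adjusted over all 12315 genes tested), where 13% of all genes tested were higher, and the median log2 fold change was 1.15, against -0.17 over all genes. None fell (0 genes by limma, edgeR or DESeq2, and 1 at an unadjusted p under 0.05), where 9.7% of all genes were lower. The 3 APP-KI libraries lay above the 3 WT libraries for 14 of the 21 genes and below them for 1, against 17.8% and 25.7% of all genes. In the fatty acid arm 4 of 12 genes tested rose and 1 fell, with a median of 0.62, and the libraries did not overlap for 5 genes that were higher and 1 that was lower. Malic enzyme, Me1, with between 0 and 91 reads per library, did not reach the filter on low values. With median ratio scaling between libraries the median over all genes moved to -0.03, and 1845 genes were higher and 605 lower, in place of 1602 and 1195, while 13 sterol genes were higher and 0 lower and 5 fatty acid genes were higher and 1 lower. DESeq2 on recovered reads called 14 sterol genes and 7 fatty acid genes higher. In bulk RNA, fewer cells of a kind and less RNA per cell cannot be told apart, and this holds for every level given here.

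Among all sorted microglia, APP-KI against WT gave no sterol gene past the threshold when all 14 libraries were fitted (0 of 21 by limma, where 2.22% of 12410 genes were higher and 1.93% lower, and 5 sterol genes had a positive and 0 a negative fold change at an unadjusted p under 0.05). On recovered reads edgeR called 1 sterol gene higher and DESeq2 3. The fold changes were positive for 19 of the 21, with a median of 0.82 against -0.01 over all genes, and the 3 APP-KI libraries lay above the 3 WT libraries for 13 genes and below them for 0, against 12.8% and 16.4% of all genes. Of 12 fatty acid genes 2 rose, with a median of 0.47, and the libraries lay apart for 3 that were higher and 2 that were lower. That median ran from 0.18 to 0.68 with 1 library left out. The counts turned on few libraries. Without double-mutant replicate 1, which is of neither genotype but shares the fit, 5 sterol genes were higher, and without APP-KI replicate 4, C3aR-KO replicate 1 or C3aR-KO replicate 2, 1 was. With the filter raised 1 passed, Sc5d (0.97), and with only the 2 groups fitted 2 did, Srebf2 (0.95) and Insig1 (1.39). Without the 4 libraries with fewer genes detected, 13 of the 21 sterol genes rose and 0 fell (by limma, and by unadjusted p under 0.05 again 0 fell), where 13.2% of 12566 genes were higher and 14.7% lower, and 5 fatty acid genes rose and 1 fell. Leaving out APP-KI replicate 5 as well gave 11 and 4 genes higher and 0 lower in either arm in limma (by unadjusted p under 0.05, 0 sterol genes and 1 fatty acid gene lower), where 7.88% of 12139 genes were higher and 7.81% lower. These fits held 2 and 1 APP-KI libraries and 1 C3aR-KO library, and a lone sample is there assumed to vary like the other groups.

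The genes called in the 2 sorts could be set side by side, since the C3aR-positive libraries and the 14 others share no library. The shares that follow describe the members only, since no matching share over all genes is given here. Of the 13 sterol genes that rose in C3aR-positive microglia, 12 (92.3%) were also among the 13 that rose in the 10 libraries left without the 4 with fewer genes detected, and these 12 were 92.3% of the latter. Nsdhl was called only in the former and Fdps only in the latter. All 4 fatty acid genes that rose in C3aR-positive microglia were among the 5 of the 10 libraries (100% and 80%), Acacb being the fifth. A test of whether the APP-KI effect differed between the sorts called 0 sterol and 0 fatty acid genes by limma (0% of 12592 genes higher and 0% lower), with 4 sterol genes larger and 1 smaller, and 1 fatty acid gene each way, in the C3aR-positive cells at an unadjusted p under 0.05. For this test edgeR called 0 in both arms and DESeq2 called 1 sterol gene. Without the 4 libraries limma again called 0 in both arms, and by unadjusted p under 0.05 it had 4 sterol genes larger and 1 smaller, and 2 and 1 fatty acid genes.

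**Figure D1:**
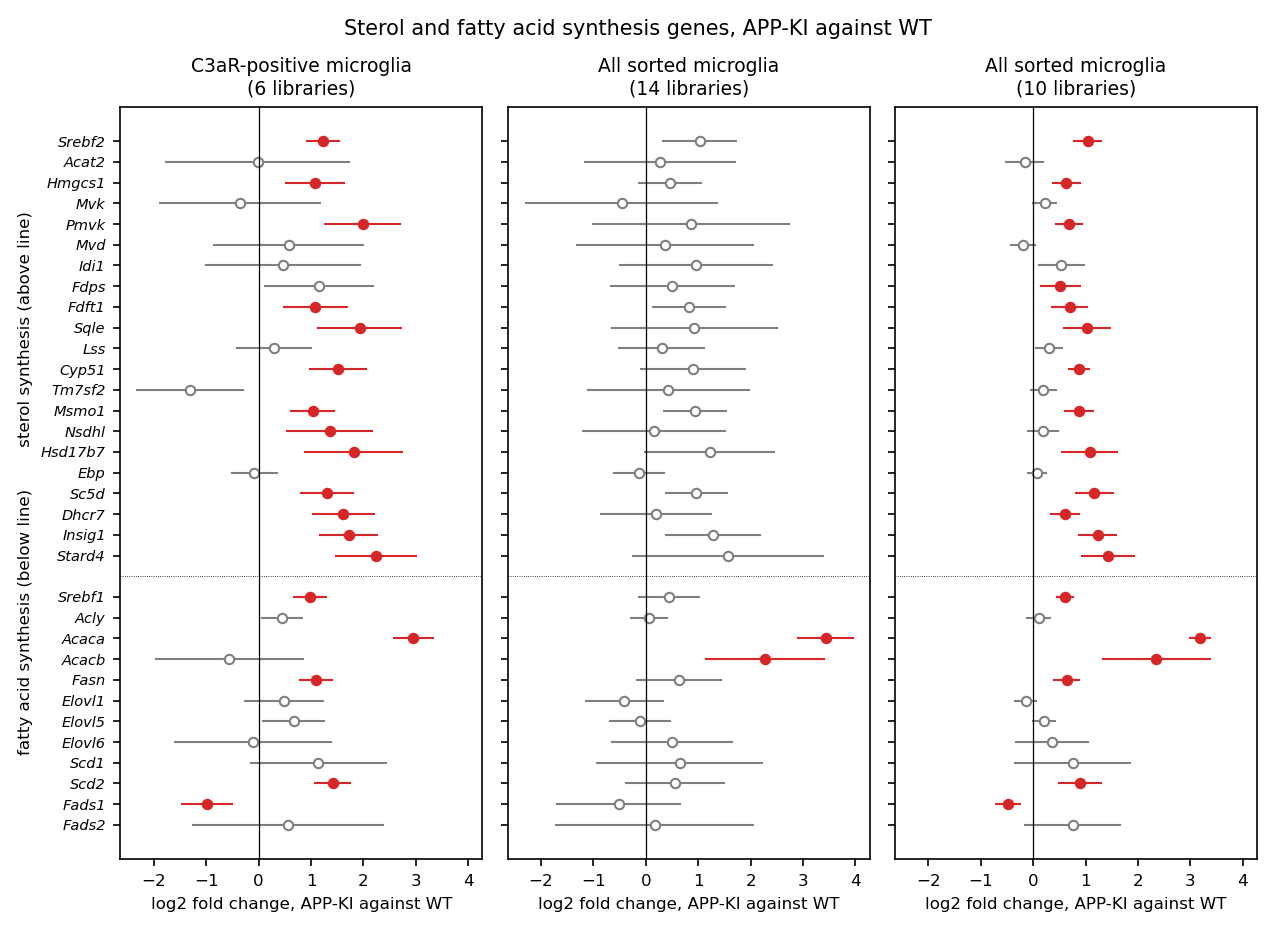
Log2 fold change of APP-KI against WT (x axis, on log2 of the scaled value + 1) with its 95% confidence interval for each sterol synthesis gene (above the dotted line) and fatty acid synthesis gene (below it), in C3aR-positive microglia, in the fit of all 14 other libraries, and in the 10 left without the 4 libraries with fewer genes detected. Filled red points passed an adjusted p under 0.05 in limma, and 13, 0 and 13 of the 21 sterol genes did so with a positive fold change.

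The master regulator of the sterol arm, Srebf2, which encodes SREBP2 and lies at chr15:82147181-82205379 on the plus strand of GRCm38, had scaled values of 68.5, 67.1 and 60.8 in WT and 135, 159 and 173 in APP-KI in C3aR-positive microglia. The other libraries gave 65.4, 72.5 and 76.4 in WT, 112, 147 and 144 in APP-KI, 78.8, 63.3 and 64.6 in C3aR-KO and 51.0, 138, 164, 151 and 195 in double mutants. All APP-KI libraries of both sorts lay above all WT libraries, and the C3aR-KO libraries lay among or near the WT values. The double mutants lay among or above the APP-KI libraries of the same sort, except for replicate 1, which was the lowest of the 20. Srebf2 rose in C3aR-positive microglia by 1.23 on the log2 scale (standard error 0.13, adjusted p = 0.000276). Among all sorted microglia the log2 fold change was 1.03 with 14 libraries (standard error 0.33, adjusted p = 0.115), and passed at 0.94 without double-mutant replicate 1 and at 1.05 with 10 libraries (adjusted p = 0.000248). All adjusted p-values given here come from limma.

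Insig1, the sterol sensor that retains SREBP in the endoplasmic reticulum and is itself an SREBP target, had scaled values of 17.5, 14.1 and 9.68 in WT and 46.3, 48.0 and 44.8 in APP-KI C3aR-positive microglia. It was 10.1, 15.4 and 16.0 in WT, 43.0, 33.7 and 31.5 in APP-KI, 7.12, 26.2 and 13.6 in C3aR-KO and 74.4, 35.3, 34.2, 31.7 and 35.0 in double mutants. Every library with the APP-KI alleles lay above every library without them in its sort, the highest being double-mutant replicate 1. Insig1 rose by 1.72 in C3aR-positive APP-KI microglia (standard error 0.24, adjusted p = 0.00113), and was 1.28 among all sorted microglia (adjusted p = 0.131), which passed without double-mutant replicate 1 (1.35) and with 10 libraries (1.23). Stard4, a soluble carrier that moves cholesterol between membranes, was 3.73, 2.98 and 2.78 in WT and 15.6, 22.1 and 18.5 in APP-KI C3aR-positive microglia. It was 3.66, 5.70 and 6.83 in WT, 13.5, 17.8 and 13.1 in APP-KI, 11.7, 11.8 and 5.33 in C3aR-KO and 0, 13.001, 15.6, 15.1 and 19.5 in double mutants, so that C3aR-KO replicates 1 and 2 lay above WT, and double-mutant replicate 1 was at 0. Its rise of 2.24 in C3aR-positive microglia was the largest of the sterol arm (standard error 0.34, adjusted p = 0.00169), and among all sorted microglia the log2 fold change was 1.56 (adjusted p = 0.532), which passed without double-mutant replicate 1 (1.31) and with 10 libraries (1.42).

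**Figure D2:**
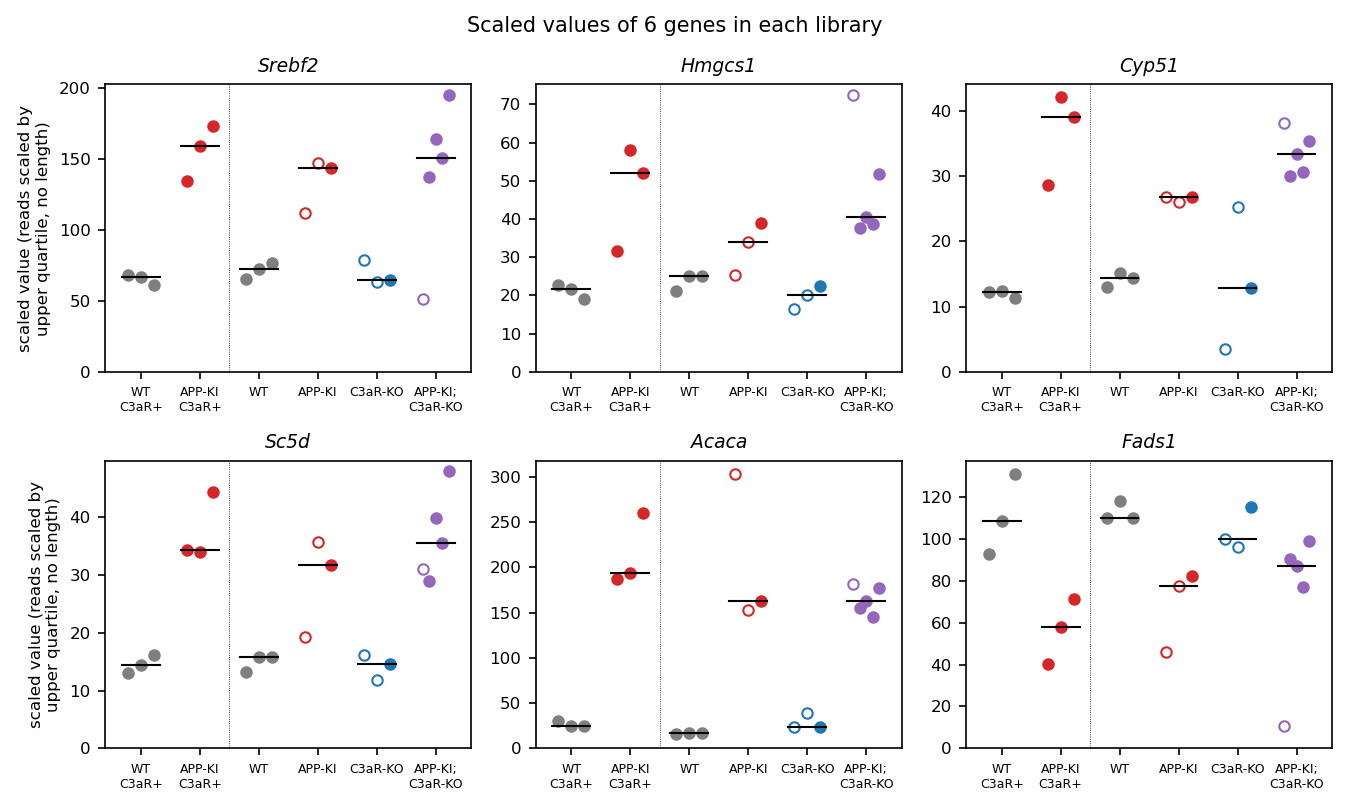
Scaled value (y axis, reads scaled by the library's upper quartile) of Srebf2, Hmgcs1, Cyp51, Sc5d, Acaca and Fads1 in each of the 20 libraries, by group (x axis), with the median of a group as a line and the 5 libraries that stood apart as open circles. Acaca lay at 187 or above in APP-KI and at 30.6 or below in WT C3aR-positive microglia, and Fads1 lay the other way.

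In the mevalonate pathway, Hmgcs1, the synthase that joins acetyl-CoA and acetoacetyl-CoA to HMG-CoA, had scaled values of 22.8, 21.7 and 19.1 in WT and 31.7, 58.1 and 52.0 in APP-KI C3aR-positive microglia. It was 21.1, 25.0 and 25.0 in WT, 25.4, 34.0 and 38.9 in APP-KI, 16.4, 20.2 and 22.4 in C3aR-KO and 72.4, 37.7, 40.6, 38.7 and 51.8 in double mutants. The genotypes with and without the APP-KI alleles did not overlap in either sort, but APP-KI replicate 4 lay just above the highest WT library. Hmgcs1 rose by 1.08 in C3aR-positive APP-KI microglia (standard error 0.25, adjusted p = 0.0121), a call lost without APP-KI replicate 2 of that sort (0.91), and among all sorted microglia it was 0.46 with 14 libraries (adjusted p = 0.607) and 0.64 with 10 (adjusted p = 0.00344). Pmvk, phosphomevalonate kinase, was 6.30, 4.93 and 3.63 in WT and 21.1, 25.6 and 20.3 in APP-KI C3aR-positive microglia, and 11.0, 10.2 and 10.9 in WT and 15.1, 15.7 and 19.4 in APP-KI of the other sort. The genotypes lay apart in both, and Pmvk rose by 1.99 in C3aR-positive microglia (adjusted p = 0.00228) and, with 10 libraries, by 0.68 among all sorted microglia (adjusted p = 0.00163), while it was 0.86 with 14 (adjusted p = 0.881). Fdps, which makes farnesyl pyrophosphate, was 4.73, 1.66 and 2.67 and 7.19, 10.5 and 5.504, apart but not past the threshold (1.15, adjusted p = 0.098).

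The other 4 genes of this stretch, Acat2, Mvk, Mvd and Idi1, did not pass in C3aR-positive microglia, with log2 fold changes between -0.35 and 0.57. In each of the 4 the libraries of the genotypes overlapped, and the APP-KI libraries spread widely. Mevalonate kinase, Mvk, was 7.50, 24.4 and 1.65 in APP-KI against 9.36, 10.2 and 9.29 in WT. Mvd, mevalonate pyrophosphate decarboxylase, was 16.7, 15.0 and 2.28 against 4.95, 8.45 and 4.02. Idi1, the isopentenyl pyrophosphate isomerase, was 4.76, 4.34 and 0.236 against 1.77, 1.61 and 0.961. Replicate 3 of C3aR-positive APP-KI microglia was the lowest for all 3, and without it Mvd passed at 1.36. Acat2, the cytosolic acetoacetyl-CoA thiolase that opens the pathway, was 3.20, 0.173 and 9.20 in APP-KI and 0.997, 3.61 and 4.63 in WT.

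From squalene to lanosterol, Sqle, the squalene epoxidase that takes the first oxygen-dependent step, had scaled values of 2.60, 2.98 and 2.88 in WT and 15.1, 12.1 and 13.7 in APP-KI C3aR-positive microglia, and 5.64, 6.40 and 6.09 in WT, 5.57, 15.6 and 11.0 in APP-KI, 0.590, 8.98 and 5.67 in C3aR-KO and 0.814, 8.86, 12.3, 11.3 and 14.1 in double mutants. APP-KI replicate 4, C3aR-KO replicate 1 and double-mutant replicate 1 lay below the other libraries of their groups, so that the genotypes overlapped in the 14 libraries. Sqle rose by 1.93 in C3aR-positive microglia (standard error 0.35, adjusted p = 0.00425), and among all sorted microglia it was 0.92 with 14 libraries (adjusted p = 0.783) and 1.02 with 10 (adjusted p = 0.00448). Fdft1, squalene synthase, was 10.6, 12.2 and 9.72 in WT and 29.5, 20.1 and 23.4 in APP-KI C3aR-positive microglia, a rise of 1.09 (adjusted p = 0.0174) whose call was lost without WT replicate 1 (1.07), WT replicate 3 (1.02) or APP-KI replicate 1 (0.94) of that sort. Fdft1 shares 774 bases with the cathepsin gene Ctsb on the opposite strand, whose scaled value ran from 1945 to 2238 in WT and from 6587 to 8792 in APP-KI C3aR-positive microglia. Whether the counting used the strand is not given in the sources used here, the part of such reads in Fdft1 was not tested, and its values are uncertain. Lss, which folds the epoxide into lanosterol, did not pass in C3aR-positive microglia (0.29, 13.5, 9.62 and 20.4 in WT and 19.0, 17.5 and 15.3 in APP-KI).

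From lanosterol to cholesterol, 6 of 8 genes rose in C3aR-positive microglia. Cyp51, the lanosterol demethylase, was 12.3, 12.4 and 11.3 in WT and 28.6, 42.1 and 39.1 in APP-KI, and in the other libraries 12.98, 15.1 and 14.3 in WT, 26.8, 26.03 and 26.8 in APP-KI, 3.46, 25.3 and 12.8 in C3aR-KO and 38.1, 30.0, 33.3, 30.6 and 35.4 in double mutants. The genotypes with and without the APP-KI alleles lay apart in both sorts, and in the C3aR-KO group replicates 1 and 2 lay on either side of replicate 3. Cyp51 rose by 1.52 in C3aR-positive microglia (standard error 0.24, adjusted p = 0.00192), and among all sorted microglia it was 0.90 with 14 libraries (adjusted p = 0.488) and 0.88 with 10 (adjusted p = 0.000116). Sc5d, which sets the C5 double bond, was 13.1, 14.5 and 16.2 in WT and 34.3, 34.1 and 44.4 in APP-KI C3aR-positive microglia, and 13.1, 15.8 and 15.8 in WT, 19.4, 35.7 and 31.7 in APP-KI, 16.1, 11.9 and 14.6 in C3aR-KO and 31.0, 29.0, 39.9, 35.5 and 48.0 in double mutants. No library with the APP-KI alleles lay at or below any without them. Sc5d rose by 1.30 in C3aR-positive microglia (standard error 0.22, adjusted p = 0.00286), and its 0.97 among all sorted microglia (adjusted p = 0.0616) passed without APP-KI replicate 4 (1.16), C3aR-KO replicate 1 (0.98), C3aR-KO replicate 2 (0.96) or double-mutant replicate 1 (0.96), and with 10 libraries (1.17, adjusted p = 0.000741).

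Msmo1, the C4 methylsterol oxidase, was 24.1, 26.3 and 19.5 in WT and 47.3, 50.3 and 47.6 in APP-KI C3aR-positive microglia, and 21.1, 29.5 and 27.3 in WT and 40.7, 47.2 and 46.6 in APP-KI of the other sort. Its libraries lay apart in both sorts, and it rose by 1.03 in the C3aR-positive cells (adjusted p = 0.00377), while the log2 fold change was 0.93 among all sorted microglia (adjusted p = 0.0844), which passed without double-mutant replicate 1 (0.87) and with 10 libraries (0.88). Dhcr7, which makes cholesterol from its immediate precursor, was 13.1, 11.0 and 10.7 in WT and 28.8, 36.7 and 49.9 in APP-KI C3aR-positive microglia, and 21.1, 22.9 and 21.3 in WT and 7.86, 33.0 and 33.5 in APP-KI of the other sort. APP-KI replicate 4 alone lay below the WT libraries. Dhcr7 rose by 1.62 in C3aR-positive microglia (adjusted p = 0.00225), and among all sorted microglia it was 0.20 with 14 libraries, -0.23 without APP-KI replicate 5 and 0.61 with 10 (adjusted p = 0.00487). Hsd17b7, a 3-ketosteroid reductase, rose by 1.81 (adjusted p = 0.0125) from values of 1.09, 1.86 and 1.42 to 7.96, 6.85 and 7.94, levels at which the added 1 lowers the fold change. Nsdhl, the C4 decarboxylase on the X chromosome, rose by 1.36 (adjusted p = 0.0246), from 5.92, 4.98 and 3.63 to 10.2, 16.1 and 15.9, and lost its call without WT replicate 2 (1.39), WT replicate 3 (1.20), APP-KI replicate 2 (1.25) or APP-KI replicate 3 (1.26) of that sort.

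The 2 remaining genes of the stretch went no such way. Tm7sf2, a sterol C14 reductase whose reaction the lamin B receptor Lbr can also carry out, was 14.1, 14.01 and 7.97 in WT and 3.36, 7.63 and 2.52 in APP-KI C3aR-positive microglia. It was the 1 sterol gene whose APP-KI libraries all lay below the WT libraries, at -1.31 (adjusted p = 0.0624), and it passed at -1.69 without APP-KI replicate 2 of that sort. In the 14 other libraries it was 8.45, 6.87 and 6.86 in WT, 11.99, 10.5 and 7.57 in APP-KI, 14.8, 19.3 and 8.64 in C3aR-KO and 0, 9.23, 7.47, 6.68 and 6.79 in double mutants, which gave APP-KI a log2 fold change of 0.43, or 0.19 with 10 libraries, and the difference between the sorts, -1.56, or -1.51 without the 4 libraries, did not pass (adjusted p = 0.667 and 0.487). Ebp, the sterol isomerase, was 33.2, 27.8 and 38.7 in WT and 32.7, 30.0 and 30.6 in APP-KI C3aR-positive microglia, and its log2 fold change of -0.08 had a 95% interval of -0.51 to 0.35, and of -0.60 to 0.35 around -0.12 among all sorted microglia, or -0.10 to 0.25 around 0.07 with 10 libraries.

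In the fatty acid arm the change with the largest size was that of Acaca, the cytosolic acetyl-CoA carboxylase that makes malonyl-CoA, at chr11:84129672-84401651 on the plus strand of GRCm38. Its scaled value was 30.6, 24.9 and 24.1 in WT and 187, 193 and 260.1 in APP-KI C3aR-positive microglia, and 15.9, 16.6 and 17.3 in WT, 303, 153 and 162 in APP-KI, 23.7, 38.5 and 23.5 in C3aR-KO and 182, 155, 163, 145 and 177 in double mutants. All 11 libraries with the APP-KI alleles lay above all 9 without them, with no value between 38.5 and 145, and APP-KI replicate 4 was the highest. Acaca rose by 2.95 in C3aR-positive APP-KI microglia (standard error 0.17, adjusted p = 1.49e-05) and by 3.43 among all sorted microglia (standard error 0.25, adjusted p = 8.02e-07), and the latter was 3.68 within the library series that holds 2 APP-KI libraries and 1 WT library and 3.19 within that of 1 and 2. The call held in every alternative run, left-out libraries included, and the gene shares part of its span with Gm11437 on the opposite strand, whose scaled value did not exceed 1.11 in any library.

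Acacb, the carboxylase of the outer mitochondrial membrane whose malonyl-CoA restrains fatty acid oxidation, was 0.814, 2.22 and 1.34 in WT and 10.3, 12.6 and 9.86 in APP-KI among all sorted microglia, and 3.76, 10.6 and 3.19 in C3aR-KO and 5.14, 6.19, 7.60, 8.18 and 2.12 in double mutants. All APP-KI and all C3aR-KO libraries lay above WT, and all double mutants lay below APP-KI, with replicate 5 among WT. Of all genes, 12.8% lay so in APP-KI against WT, 9.16% in C3aR-KO against WT and 1.01% in double mutants against APP-KI. Acacb rose by 2.27 (standard error 0.53, adjusted p = 0.0233), a call lost without WT replicate 4 (1.91), WT replicate 6 (2.27), APP-KI replicate 5 (2.19) or APP-KI replicate 6 (2.31), with no filter, in edgeR (2.91) and without the 5 libraries that stood apart (2.13), while it passed with 10 libraries (2.35, adjusted p = 0.00489). In C3aR-positive microglia it was 8.52, 3.47 and 7.94 in WT and 1.19, 10.8 and 3.62 in APP-KI, overlapping (-0.56, adjusted p = 0.537), and the difference between the sorts of -2.93 did not pass (adjusted p = 0.667). Fasn, fatty acid synthase, was 47.3, 52.5 and 56.6 in WT and 99.9, 123 and 115 in APP-KI C3aR-positive microglia, and 64.3, 67.4 and 72.4 in WT, 73.0, 112 and 100.6 in APP-KI, 72.5, 26.6 and 78.6 in C3aR-KO and 39.0, 104, 112, 96.9 and 122 in double mutants. The first pair lay far apart, APP-KI replicate 4 lay just above WT, and double-mutant replicate 1 lay below WT. Fasn rose by 1.09 in C3aR-positive microglia (standard error 0.14, adjusted p = 0.000638), and was 0.63 with 14 libraries (adjusted p = 0.607) and 0.64 with 10 (adjusted p = 0.00203).

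Srebf1, which encodes SREBP1, had scaled values of 62.2, 65.7 and 51.1 in WT and 117, 115 and 121 in APP-KI C3aR-positive microglia, and 70.5, 68.5 and 72.7 in WT, 65.8, 107 and 109 in APP-KI, 73.4, 31.3 and 69.8 in C3aR-KO and 97.4, 117, 124, 109 and 114 in double mutants. APP-KI replicate 4 lay below the WT libraries, and the other libraries with the APP-KI alleles lay above all without them. It rose by 0.98 in C3aR-positive microglia (standard error 0.13, adjusted p = 0.000966), and was 0.45 with 14 libraries (adjusted p = 0.607) and 0.61 with 10 (adjusted p = 0.000346). Acly, which splits citrate into cytosolic acetyl-CoA, was 216, 248 and 208 in WT and 239, 310.1 and 386 in APP-KI C3aR-positive microglia, an overlapping pair at 0.45 (adjusted p = 0.0811). Its fold change passed with median ratio scaling (0.60) and without APP-KI replicate 1 of that sort (0.63), and among all sorted microglia it was 0.07 (95% interval -0.28 to 0.41), or 0.10 with 10 libraries (-0.12 to 0.32).

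The desaturases parted. Scd2, the stearoyl-CoA desaturase that predominates in brain, was 169.9, 164 and 144 in WT and 357, 416 and 519 in APP-KI C3aR-positive microglia, and 227, 226 and 195 in WT, 139.5, 324 and 478 in APP-KI, 216, 150.2 and 151 in C3aR-KO and 127, 407, 454, 393 and 565 in double mutants. APP-KI replicate 4 and double-mutant replicate 1 were the lowest of the 14, and the other libraries with the APP-KI alleles were the highest. Scd2 rose by 1.41 in C3aR-positive microglia (standard error 0.15, adjusted p = 0.000235), and was 0.55 with 14 libraries (adjusted p = 0.777) and 0.90 with 10 (adjusted p = 0.00557). Its neighbour and close relative Scd1 on chromosome 19 held between 0 and 761 reads per library and did not pass (1.14, adjusted p = 0.177), and reads that fit both genes are uncertain. Fads1, the delta-5 desaturase of polyunsaturated fatty acids, went the other way, with 92.7, 109 and 131 in WT and 40.4, 57.9 and 71.3 in APP-KI C3aR-positive microglia, and 109.9, 118 and 110.1 in WT, 46.1, 77.7 and 82.2 in APP-KI, 99.9, 96.1 and 115 in C3aR-KO and 10.9, 90.6, 87.1, 77.1 and 99.2 in double mutants. All APP-KI libraries of both sorts lay below all WT libraries, and double-mutant replicate 1 was the lowest of the 20. It fell in C3aR-positive microglia (log2 fold change -0.98, standard error 0.21, adjusted p = 0.00956), and was -0.52 with 14 libraries (adjusted p = 0.886), -0.69 without double-mutant replicate 1, where it passed, and -0.49 with 10 (adjusted p = 0.00706). With 1 library left out, the log2 fold change of Fads1 in APP-KI against WT among all sorted microglia ran from -0.73 to -0.20. Fads2, the delta-6 desaturase next to Fads1 on chromosome 19, spread from 0.157 to 9.89 in APP-KI and from 0.249 to 2.64 in WT C3aR-positive microglia and did not pass.

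Of the elongases, which add carbon pairs to fatty acids, none passed in C3aR-positive microglia by limma (0 of 3, with 1, Elovl5, at an unadjusted p under 0.05), edgeR called none and DESeq2 called Elovl5. Elovl5 was 35.7, 43.2 and 26.02 in WT and 47.0, 44.8 and 79.4 in APP-KI, and Elovl1, which acts on very long saturated chains, was 33.3, 33.9 and 41.8 and 37.2, 36.4 and 96.5. For both, APP-KI replicate 3 stood above the other 5 libraries. Among all sorted microglia Elovl1 was 18.3, 44.7 and 50.7 in APP-KI and 54.5, 53.8 and 51.0 in WT, and the 3 APP-KI libraries lay below the 3 WT libraries, replicate 4 by far the most. Its log2 fold change was -0.41 with 14 libraries (adjusted p = 0.803) and -0.14 with the 10 that leave out APP-KI replicate 4 and 3 others (adjusted p = 0.268). Elovl6, which extends palmitate, held between 0 and 187 reads per library and did not pass.

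In microglia that lack C3ar1, the APP-KI alleles went with a rise of several of the same enzymes. Of the 21 sterol genes 5 were higher and 0 lower in double mutants than in C3aR-KO when 14 libraries were fitted (limma; 8 up and 1 down at an unadjusted p under 0.05; 0 lower by edgeR and DESeq2), where 3.96% of all genes were higher and 2.97% lower. They were Hmgcs1 (1.19, adjusted p = 0.00784), Fdft1 (1.07, adjusted p = 0.0353), Cyp51 (1.52, adjusted p = 0.0381), Sc5d (1.22, adjusted p = 0.00552) and Insig1 (1.51, adjusted p = 0.0235). All 5 double mutants lay above all 3 C3aR-KO libraries for each of them, and for 5 of the 21 in all, and below them for 0, where 6.34% of all genes lay apart as higher and 7.34% as lower. The median over the sterol arm was 0.78, against -0.03 over all genes, and ran from 0.48 to 0.95 with 1 library left out. Of 12 fatty acid genes, Srebf1 (0.96, adjusted p = 0.0232) and Acaca (2.56, adjusted p = 3.69e-06) rose, and 0 fell by limma, edgeR or DESeq2 or at an unadjusted p under 0.05. DESeq2 called 8 sterol genes higher. With only the 2 groups fitted, 2 sterol genes, Hmgcs1 (1.24) and Sc5d (1.22), and 1 fatty acid gene, Acaca (2.56), passed, and with no filter 3 sterol genes and 1 fatty acid gene did.

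These calls leaned on single libraries. Without the 4 libraries with fewer genes detected, which left 1 C3aR-KO library, 13 sterol genes and 5 fatty acid genes were higher, 0 and 1 were lower, and 13.2% of all genes were higher and 18.2% lower; Stard4, at -0.28 with 14 libraries, was then at 1.46 and Pmvk, at -0.52, at 0.87, both past the threshold. The overlap of these genes with those called in C3aR-positive microglia is not given, since no matching share over all genes stands beside it. With C3aR-KO replicate 1 left out, 2 sterol genes were higher in place of 5, and Insig1 (1.06), Cyp51 (0.86) and Fdft1 (1.00) lost their calls. Insig1 also lost it without C3aR-KO replicate 3 (1.58). Cyp51 kept its call only without APP-KI replicate 4, APP-KI replicate 5 or C3aR-KO replicate 2 among the 14 fits with 1 library left out, and Fdft1 only without APP-KI replicate 4, APP-KI replicate 5, C3aR-KO replicate 3 or double-mutant replicate 1, so that 3 sterol genes were called without any 1 of the WT libraries, APP-KI replicate 6, C3aR-KO replicate 3 or double-mutant replicates 2 to 5. Srebf1 lost its call without C3aR-KO replicate 2 (0.62) or double-mutant replicate 2 (0.89), which left 1 fatty acid gene in place of 2. Without double-mutant replicate 1, Srebf2 (1.16), Msmo1 (0.99), Dhcr7 (1.57) and Scd2 (1.30) passed, and without APP-KI replicate 4 so did Dhcr7 (1.45) and Elovl5 (0.51).

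Loss of C3ar1 itself moved no gene of either arm past the threshold. Between C3aR-KO and WT, 0 of 21 sterol genes and 0 of 12 fatty acid genes passed in limma, edgeR or DESeq2, where 0% of all genes were higher and 0.00806% lower in limma, and 1 sterol gene was lower, 0 higher, and 2 fatty acid genes higher, 0 lower, by unadjusted p under 0.05. The medians were -0.15 and -0.16, against -0.03 over all genes. Between double mutants and APP-KI, again 0 and 0 genes passed with all 3 tools (0% of all genes higher and 0.00806% lower in limma, and 0 members at an unadjusted p under 0.05), and the medians were -0.17 and -0.14, against -0.03. With 10 libraries the medians were -0.10 and 0.11 for C3aR-KO against WT and 0.01 and 0.05 for double mutants against APP-KI, again with 0 members past the threshold in limma (by unadjusted p under 0.05, 1 sterol gene higher and 1 fatty acid gene each way in the former, 1 sterol gene higher in the latter), where 0.00796% of all genes were higher and 0.00796% lower in the former and 0% and 0.00796% in the latter. The 95% intervals were wide for single genes, from -0.79 to 0.45 for Srebf2 and from -0.68 to 0.25 for Acaca in double mutants against APP-KI, so that a p above the threshold does not show equal levels.

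The interaction of C3ar1 loss with the APP-KI alleles gave 0 sterol and 0 fatty acid genes past the threshold (limma, 0% of all genes higher and 0% lower; 0 sterol genes, and 2 fatty acid genes with a negative value, had an unadjusted p under 0.05), and edgeR and DESeq2 called 0 members too. The 2 were the carboxylases. Acaca lay higher in all 3 C3aR-KO libraries than in all 3 WT libraries (0.66, adjusted p = 0.995), whereas double mutants and APP-KI overlapped (-0.22), an interaction of -0.87 (adjusted p = 0.998). Acacb lay higher in all C3aR-KO than in all WT libraries (1.32) and lower in all double mutants than in all APP-KI libraries (-0.85), an interaction of -2.17 (adjusted p = 0.998). Of all genes, 9.16% lay higher and 9.31% lower in all C3aR-KO than in all WT libraries. Between double mutants and APP-KI, 0.604% lay higher and 1.01% lower throughout. Of the sterol arm, 1 gene lay higher and 3 lower in all C3aR-KO than in all WT libraries. Of the fatty acid arm, 3 lay higher and 0 lower. Without the 4 libraries, with a lone C3aR-KO sample assumed to vary like the other groups, Acaca was 0.45 in C3aR-KO against WT and its interaction -0.46 (adjusted p = 0.282), and Acacb was 0.79 and -1.71 (adjusted p = 0.338). Limma again called 0 members there, and by unadjusted p under 0.05 it had 1 sterol gene positive and 2 negative, and 1 and 2 fatty acid genes.

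Averaged over the 21 sterol genes, the mean log2 value of a library was 3.24 ± 0.074 in WT and 4.22 ± 0.151 in APP-KI C3aR-positive microglia (SD, n = 3 each). It was 3.59 ± 0.085 in WT, 3.29 ± 0.373 in C3aR-KO and 4.11 ± 0.179 in APP-KI (SD, n = 3 each), with 3.98 ± 0.561 in double mutants (SD, n = 5). The libraries of WT and APP-KI lay apart in both sorts, and the spread of C3aR-KO and double mutants came with C3aR-KO replicate 1, at 2.86, and double-mutant replicate 1, at 2.99, without which the double mutants ran from 4.12 to 4.37. For the 13 fatty acid genes the mean was 4.29 ± 0.127 and 4.93 ± 0.144 in WT and APP-KI C3aR-positive microglia (SD, n = 3 each), 4.41 ± 0.082 in WT, 4.28 ± 0.240 in C3aR-KO and 4.91 ± 0.486 in APP-KI (SD, n = 3 each), with 4.80 ± 0.536 in double mutants (SD, n = 5). Here APP-KI replicate 4, at 4.37, lay among WT. The libraries not selected on C3aR fall into a pair of library series, each holding all 4 genotypes, and the APP-KI difference from WT was 0.61 and 0.48 within them for the sterol arm and 0.52 and 0.60 for the fatty acid arm. The difference of double mutants from C3aR-KO was 0.41 and 0.70, and 0.38 and 0.44. The difference of C3aR-KO from WT was -0.34 and -0.08, and -0.18 and 0.10, and that of double mutants from APP-KI was -0.54 and 0.14, and -0.32 and -0.06, with opposite signs for the fatty acid arm in the former and the sterol arm in the latter. The first value of each pair comes from the series that holds all 5 libraries that stood apart, where double-mutant replicate 1, at 2.99, is 1 of 2 double mutants and the other is at 4.12, and where both C3aR-KO libraries had fewer genes detected.

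**Figure D3:**
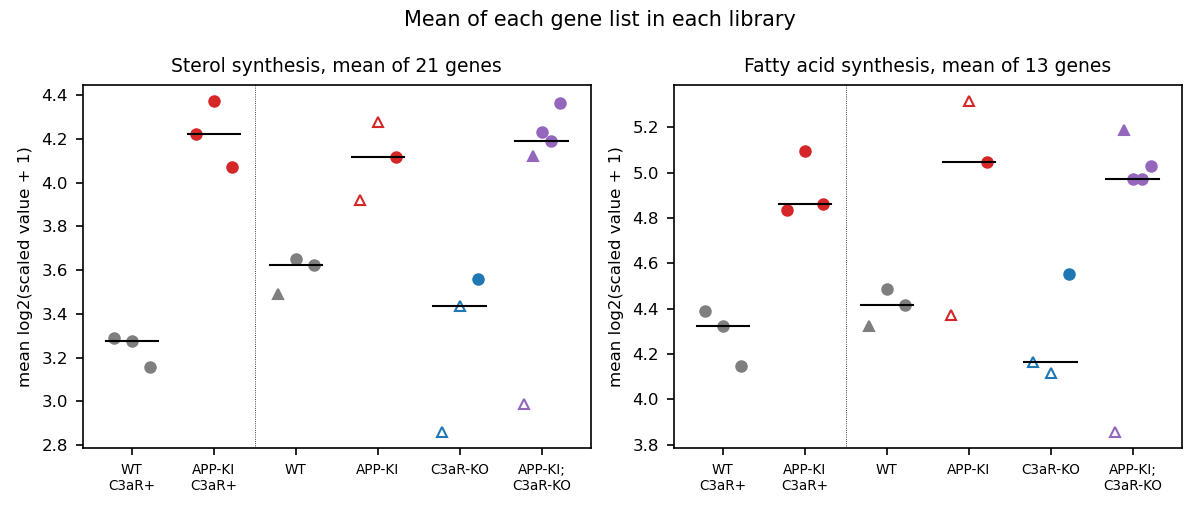
Mean log2 of the scaled value + 1 (y axis) over the 21 sterol genes and the 13 fatty acid genes in each library, by group (x axis), with the group median as a line. Triangles mark 1 of the library series of the cells not selected on C3aR, circles the other series and the C3aR-positive cells, and open symbols the 5 libraries that stood apart; the lowest double mutant, at 2.99 for the sterol arm, is 1 of them.

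Among other genes of sterol metabolism, Nus1, a subunit of the dehydrodolichyl diphosphate synthase, had scaled values of 55.7, 35.8 and 32.8 in WT and 65.5, 85.3 and 66.5 in APP-KI C3aR-positive microglia, and it rose by 0.82 on the log2 scale. Lbr was 62.5, 64.6 and 60.3 in WT and 41.7, 40.5 and 27.4 in APP-KI, and it fell (log2 fold change -0.78). Rnf145, a ubiquitin ligase that takes part in the control of SREBP, was 113, 111 and 115 in WT and 79.7, 76.2 and 93.2 in APP-KI C3aR-positive microglia, and 122, 125 and 118 in WT and 80.7, 87.0 and 79.0 in APP-KI among all sorted microglia. It fell in both sorts (-0.44 and -0.54). Other genes of this list that passed are not reported here, so that the genes named do not give its balance of directions.

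Of 28 other genes of fatty acid synthesis, 23 were tested, and 6 rose and 3 fell in C3aR-positive APP-KI microglia, with a median of 0.08, where 13% of all genes were higher and 9.7% lower. Those that rose were the mitochondrial citrate carrier Slc25a1 (0.89), the chain-elongation enzymes Hacd2 (1.69), Hsd17b12 (1.04) and Tecr (0.55), the electron donor Cyb5r3 (0.82) and the NADPH source Pgd (0.55). Those that fell were the acetyl-CoA synthetase Acss2 (-1.56), the lipogenic regulator Thrsp (-0.95) and Oxsm of mitochondrial fatty acid synthesis (-1.32). Among all sorted microglia 0 passed in limma with 14 libraries, with 1 higher by unadjusted p under 0.05, and in double mutants against C3aR-KO 1 was higher, where 3.96% of all genes were. Without the 4 libraries with fewer genes detected, 3 were higher and 1 lower in APP-KI against WT, where 13.2% of all genes were higher and 14.7% lower, and 6 were higher and 2 lower in double mutants against C3aR-KO, where 13.2% were higher and 18.2% lower.

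Markers of microglia and of other cells that the gate could hold were read in the same libraries, and their part in the results was not tested. All 8 microglial markers were above 0 in all libraries, with Csf1r the most abundant, and their summed scaled value was 23750, 25751 and 23798 in WT and 19896, 17940 and 23200 in APP-KI C3aR-positive microglia. It was 27087, 30122 and 28072 in WT, 11313, 19702 and 25621 in APP-KI, 23381, 15142 and 27804 in C3aR-KO and 9536, 22580, 26817, 25148 and 27470 in double mutants. The lowest sums belonged to APP-KI replicate 4, C3aR-KO replicate 2 and double-mutant replicate 1, which also had fewer genes detected. The 6 endothelial markers summed to 46.3 to 92.5 in WT and 171 to 326 in APP-KI C3aR-positive microglia, and to 48.5, 59.4 and 58.2 in WT, 203, 210.1 and 257 in APP-KI, 62.9, 41.0 and 61.2 in C3aR-KO and 78.7, 169, 244, 231 and 263 in double mutants. The higher sums in APP-KI came from Flt1, the most abundant endothelial marker in libraries with the APP-KI alleles. Pecam1 held more reads than Flt1 in libraries without these alleles. Flt1 ran from 10.7 to 22.2 in WT and from 155 to 314 in APP-KI C3aR-positive microglia, while the other 5 markers summed to 35.6 to 70.3 and 7.50 to 15.2.

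The 6 border macrophage markers, led by Mrc1, summed lower in APP-KI, from 694, 624.6 and 472 in WT to 395, 178 and 179 in APP-KI C3aR-positive microglia, and were 439, 1184 and 988 in WT, 277, 257 and 266 in APP-KI, 520.1, 356 and 591 in C3aR-KO and 209, 190.2, 348, 309 and 246 in double mutants. The 10 oligodendrocyte markers, of a cell rich in sterol synthesis and led here by Mbp, summed to 142, 187 and 144 in WT and 196, 200.3 and 214 in APP-KI C3aR-positive microglia, and to 159, 232 and 202 in WT, 179, 235 and 199 in APP-KI, 117, 119.7 and 179.6 in C3aR-KO and 107, 185, 196, 194 and 231 in double mutants. The sums lay slightly apart in the C3aR-positive cells and overlapped between WT and APP-KI in the other sort, but Mbp did not follow the other 9 markers. Mbp was 50.5, 76.1 and 46.6 in WT and 121, 105 and 135 in APP-KI C3aR-positive microglia, and 65.9, 83.0 and 79.9 in WT, 116, 103 and 109 in APP-KI, 26.1, 52.5 and 66.9 in C3aR-KO and 73.2, 98.7, 114, 108 and 127 in double mutants. Its libraries with the APP-KI alleles lay above their controls in each comparison, as for many sterol genes. It rose by 1.07 in C3aR-positive microglia (adjusted p = 0.00388) and by 1.06 in double mutants against C3aR-KO (adjusted p = 0.00688), and was 0.65 in APP-KI against WT among all sorted microglia (adjusted p = 0.202). The other 9 markers summed to 91.3 to 111 in WT and 75.3 to 95.8 in APP-KI C3aR-positive microglia. Whether RNA of oligodendrocytes or myelin taken up or sorted along adds to the sterol genes was not tested. The 8 astrocyte markers, led by Slc1a3, summed to 303 to 406 in WT and 223 to 281 in APP-KI C3aR-positive microglia, and to 213 to 406 over all libraries. Gfap, 1 of them, went against the sum, with 0.450, 1.17 and 0.107 in WT and 5.38, 14.2 and 6.68 in APP-KI C3aR-positive microglia, and 0.873, 1.26 and 1.05 in WT, 3.98, 13.6 and 6.05 in APP-KI, 0, 0.142 and 0.969 in C3aR-KO and 0.0226, 5.19, 7.38, 17.9 and 7.74 in double mutants. All APP-KI libraries lay above all WT libraries in both sorts, and double mutants lay above C3aR-KO except replicate 1. Gfap rose by 2.58 in C3aR-positive microglia (adjusted p = 0.00725), and was 2.29 in APP-KI against WT (adjusted p = 0.13) and 1.97 in double mutants against C3aR-KO (adjusted p = 0.0963) among all sorted microglia. The 8 neuronal markers, led by Camk2a, summed to 12.1 to 39.8, the 6 of monocytes and neutrophils, led by S100a9, to 28.0 to 346, and the 5 of T and NK cells that were found, led by Cd3g, to 0.136 to 48.8. Markers without a read in at least 1 library were Mog, Cldn11, Ermn, Opalin and Ugt8a of oligodendrocytes, Gja1, Aldoc, Gfap and Gjb6 of astrocytes, Snap25, Syt1, Slc17a7, Gad1, Gad2 and Nefl of neurons, Cldn5, Ly6c1, Slco1a4 and Cdh5 of endothelium, Pf4 and Cbr2 of border macrophages, Ly6c2, S100a8, Ly6g and Plac8 of monocytes and neutrophils, Cd3e, Cd3d, Cd3g, Nkg7 and Klrb1c of T and NK cells.

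Since many sterol genes rose, the 250 bases before transcript starts were read from RefSeq (GRCm38.p6), where 27 of the 34 members had an entry, and 3 short motifs were searched on both strands. Only entries within 1000 bases of the annotated start of the gene were counted, a limit chosen after the entries were seen, which left 17 sterol and 8 fatty acid genes, since the only entries of Acaca and Acacb lie inside these genes. CCAAT, or ATTGG on the other strand, is the core of the site bound by NF-Y, a partner of SREBP. It was present for 15 of 17 sterol genes, all but Acat2 and Dhcr7, and 4 of 8 fatty acid genes, against 36.3% of 17408 genes with such an entry. GGGCGG, the core of the site bound by Sp1, was present for 16 of 17 sterol genes, all but Pmvk, and 4 of 8 fatty acid genes, against 44.4% of genes. TCACNCCAC, a form of the sterol regulatory element, was present for 1 sterol gene, Hmgcs1, and 0 fatty acid genes, against 1.17% of genes. A match describes letters and not a bound site, and genes that did not rise hold CCAAT as well.

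Of the genes whose 250 bases lie outside any annotated gene, 4 that rose in C3aR-positive APP-KI microglia are shown with 1 that did not, Ebp, so that the shared letters can be seen in both. Each is written 5′ to 3′ on the strand of its gene, with CCAAT or ATTGG and, in Hmgcs1, TCACNCCAC in capitals. Hmgcs1 is at chr13:119690101-119690350 on the plus strand, Pmvk at chr3:89454291-89454540 on the plus strand, Sc5d at chr9:42264301-42264550 on the minus strand, Fasn at chr11:120824548-120824797 on the minus strand and Ebp at chrX:8193513-8193762 on the minus strand. In Fasn the motif in both directions overlaps itself as a single run of 8 letters.
Hmgcs1: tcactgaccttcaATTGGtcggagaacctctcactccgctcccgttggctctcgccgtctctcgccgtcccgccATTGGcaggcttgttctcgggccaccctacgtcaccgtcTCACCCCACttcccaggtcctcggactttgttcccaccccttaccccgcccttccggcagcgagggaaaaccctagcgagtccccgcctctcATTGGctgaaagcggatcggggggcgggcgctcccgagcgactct
Pmvk: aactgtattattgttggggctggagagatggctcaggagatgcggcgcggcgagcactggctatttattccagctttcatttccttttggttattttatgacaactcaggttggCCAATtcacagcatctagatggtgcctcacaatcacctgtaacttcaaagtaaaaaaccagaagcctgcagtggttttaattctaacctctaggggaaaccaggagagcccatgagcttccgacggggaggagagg
Sc5d: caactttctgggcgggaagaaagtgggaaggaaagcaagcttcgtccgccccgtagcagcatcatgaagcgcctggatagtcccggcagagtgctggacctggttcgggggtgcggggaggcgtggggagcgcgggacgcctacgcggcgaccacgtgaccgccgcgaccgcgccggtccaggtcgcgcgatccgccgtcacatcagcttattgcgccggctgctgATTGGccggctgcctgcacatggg
Fasn: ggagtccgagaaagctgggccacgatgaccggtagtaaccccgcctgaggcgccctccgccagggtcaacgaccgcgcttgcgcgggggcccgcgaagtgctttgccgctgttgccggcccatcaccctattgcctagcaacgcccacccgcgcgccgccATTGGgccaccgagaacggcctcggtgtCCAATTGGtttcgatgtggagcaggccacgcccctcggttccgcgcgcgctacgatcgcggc
Ebp: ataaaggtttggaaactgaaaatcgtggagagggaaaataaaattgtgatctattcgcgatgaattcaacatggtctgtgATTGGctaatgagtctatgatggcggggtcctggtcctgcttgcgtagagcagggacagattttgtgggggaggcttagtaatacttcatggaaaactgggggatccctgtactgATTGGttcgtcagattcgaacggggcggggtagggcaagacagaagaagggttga
Hmgcs1 and Fasn hold the motif 3 times, Ebp 2 times, and Pmvk and Sc5d 1 time each.

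Sequence overlap limits 7 members. Besides Fdft1, Cyp51 shares 166 bases with Akap9, Srebf1 109 with Rai1, Elovl1 53 with Cdc20 and Acaca 19126 with Gm11437 on opposite strands, and Tm7sf2 shares 532 with Vps51 and Fdps 7512 with Gm43738 on the same strand. Akap9 ran from 301 to 381 in WT and from 229 to 352 in APP-KI C3aR-positive microglia, and Rai1 from 141 to 157 and 129.6 to 214, overlapping in both cases. In the other sort Rai1 ran from 129 to 138 in WT and from 144 to 203 in APP-KI, apart and higher in APP-KI as Srebf1 was in 2 of 3 libraries, and Akap9 from 246 to 295 and 264 to 459. The part of shared reads in these members was not tested.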

How the data were processed

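Microglia of 20 mice were sorted and sequenced as separate libraries, with a SMARTer Total RNA Pico v3 kit. Per the labels the authors trimmed reads with cutadapt, aligned them to mm10 with TopHat2, counted them per gene with featureCounts and used DESeq2. The deposited values, named FPKM by the authors, are a signal in which the reads of a gene are divided by the 75th percentile of the counts of that library, with no gene length. For 100% of values whole reads could be recovered (tolerance 0.1), and the deposited values were multiplied by 35.203, 1 constant for all libraries. Libraries of C3aR-positive cells were shallower than the others, so that a gene of few reads is less precise there. No pair of libraries was identical (0 of 20 libraries). Replicates were taken as separate mice.

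Tests covered genes whose scaled values averaged 1 or more in a fit and used limma 3.58.1 with a trend on log2(scaled value + 1) in R 4.3.3, with Benjamini-Hochberg adjustment and calls at an adjusted p under 0.05. Fold changes on this scale understate genes of low value. The 6 C3aR-positive libraries were fitted alone, and the 14 others in 1 fit with a term for library series, read from library numbers. On recovered reads edgeR 4.0.16 called, for APP-KI against WT, 1770 genes up and 659 down among C3aR-positive microglia, and DESeq2 1.42.0 called 2225 and 948, while among all sorted microglia edgeR called 225 and 184 and DESeq2 412 and 309. Python 3.11.15 with numpy 2.4.6, pandas 2.3.3 and scipy 1.17.1 was used for tables and matplotlib 3.10.9 for figures, and the fits were tested on simulated data. Alternatives were another added constant, other filters, median ratio scaling, edgeR, DESeq2, a block for replicate number, a stricter threshold, fits of only the 2 groups compared, fits with the series term dropped, and each library left out in turn. Fits without the 4 libraries with fewer genes detected, and without these and APP-KI replicate 5, were added after the data were seen.

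The members and lists were chosen with earlier results of these data known. Named genes were every member, genes of the 2 lists of other pathway genes past the threshold in APP-KI against WT in either sort (some are not reported here), the most abundant marker of a list and markers at 0 in some library, C3ar1, and, chosen after values were seen, genes that overlap a member. Trbc2, 1 of 6 listed T and NK cell markers, was not found. Promoters and loci were read from RefSeq on GRCm38.p6.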

Additional observations from a re-analysis of the deposited data

Results flagged for a closer look

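Double-mutant replicate 1 stood far from the other 4 double mutants, with a gap to the nearest that took up most of the range of the group, for 11 of the 34 members, in which it was lowest for 8 and highest for 3. Its scaled value was 0 for Acat2 (4.01 to 5.35 in the other 4), 0 for Pmvk (15.7 to 19.2), 0 for Mvd (9.64 to 10.3), 0 for Idi1 (2.77 to 3.49), 0 for Tm7sf2 (6.68 to 9.23), 0 for Elovl6 (1.17 to 1.58), 0.701 for Nsdhl (10.2 to 11.6) and 10.9 for Fads1 (77.1 to 99.2). It was 18.8 for Mvk (12.5 to 14.02), 17.1 for Fdps (4.49 to 5.72) and 74.4 for Insig1 (31.7 to 35.3). The mean of the library was 2.99 for the sterol arm (4.12 to 4.37) and 3.86 for the fatty acid arm (4.97 to 5.19). Chance flags about 1 in 20 groups, and the genes of a library are not independent. This rule was not applied to groups of 3 libraries, so that only double mutants could be flagged by it. The sterol mean of C3aR-KO replicate 1, at 2.86, was lower still. Reads fell on 12387 genes in this library, the fewest of all, so that genes at 0 beside genes above the group may come from few starting molecules, from a different mix of cells or from the mouse itself, and these cannot be told apart here.

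Acacb was flagged since its libraries moved in opposite directions with loss of C3ar1 in WT and APP-KI mice, a difference that did not pass after adjustment. All C3aR-KO libraries lay above all WT libraries and all double mutants lay below all APP-KI libraries, an interaction of -2.17 in limma (adjusted p = 0.998). Of all genes, 9.16% lay so in the former comparison and 1.01% in the latter.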

How the results depend on the processing

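Of 624 counts of called genes under the alternatives, 573 stayed within 1.5 times the count given and 51 did not. Counts of 0 that stayed 0 are among the 573, and many results had a count of 0. For counts above 0, sterol genes higher stayed in 13 of 14 alternatives in C3aR-positive microglia. In double mutants against C3aR-KO they stayed in 9 of 25. Fatty acid genes higher stayed in 12 of 14 and 18 of 25 in the same 2 comparisons. In APP-KI against WT among all sorted microglia they stayed in 17 of 25. Fatty acid genes lower stayed in 13 of 14 in C3aR-positive microglia. No called member turned its sign. The cause was not tested, except that a left-out library also leaves fewer samples. In C3aR-positive microglia the sterol genes higher in APP-KI were 11 to 13 with 1 library left out and 1 at an adjusted p under 0.0005, those lower 0 to 1, and the fatty acid genes higher 4 to 5, with 7 in DESeq2 and 2 at the stricter threshold, and those lower 1 to 1, with 0 at the stricter threshold. Among all sorted microglia the sterol genes higher in APP-KI than in WT, 0 as given, were 0 to 5 with 1 library left out, 1 with the filter raised to a mean of 5, 1 in edgeR, 3 in DESeq2, 2 with only the 2 groups compared, 13 without the 4 libraries with fewer genes detected and 11 without the 5 that stood apart. The fatty acid genes higher were 1 to 2, 1 with no filter, 1 in edgeR, 5 and 4 without the 4 and the 5 libraries, and those lower 0 to 1, and 1 without the 4. In double mutants against C3aR-KO the sterol genes higher were 2 to 7, 3 with no filter, 8 in DESeq2, 2 with only the 2 groups compared, and 13 and 14 without the 4 and the 5 libraries. The fatty acid genes higher were 1 to 3, 1 with no filter, 1 with only the 2 groups compared, and 5 and 5, and those lower 1 without the 4. The difference between the sorts had 1 sterol gene higher in DESeq2. All other counts were 0 to 0 with 1 library left out.

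With a replicate block the sterol genes higher in APP-KI were 12 in C3aR-positive microglia and 4 among all sorted microglia, and in double mutants against C3aR-KO 0 sterol and 1 fatty acid genes were higher. Libraries of the same number did not all deviate together (correlation 0.021, 0.037 and -0.012 in C3aR-positive microglia, 0.254, 0.093 and 0.095 in WT and APP-KI, and 0.009, -0.032 and 0.241 in C3aR-KO and double mutants), and not every library correlated best with its own number.

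Named fold changes that turned their sign belonged to members that did not pass. For APP-KI against WT Dhcr7 (0.20) was -0.061 with a replicate block, -0.061 with no library series term, and -0.23 to 0.69 with 1 library left out. For double mutants against C3aR-KO Pmvk (-0.52) was -1.14 to 0.53 with 1 library left out, being 0.12 without C3aR-KO replicate 2 and 0.53 without double-mutant replicate 1, and was 0.87 without the 4 and 0.86 without the 5 libraries. In the same comparison Stard4 (-0.28) was 0.18 in edgeR, 0.18 in DESeq2, -1.13 to 0.74 with 1 library left out, 0.00 without C3aR-KO replicate 2, 1.46 without the 4 and 1.52 without the 5, Idi1 was -0.20 to 0.93 and Sqle -0.0060 to 1.28 with 1 library left out. Of the 33 members tested, among those not called some alternative turned the sign of 6 of 15 in C3aR-positive microglia, 10 of 31 in APP-KI against WT, 10 of 26 in double mutants against C3aR-KO, 23 of 33 in C3aR-KO against WT, 24 of 33 in double mutants against APP-KI, and 20 and 9 of 33 in the interactions with C3ar1 loss and with the sort. Me1, Elovl6, Fads2, Idi1 and Acat2 held under 10 reads in 3 or more libraries, which include deep libraries with fewer genes detected, and the cause was not tested.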
